A study of Homo sapiens with 12 samples.

Results

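IL1β alone was set against vehicle in T-HESC, a telomerase-immortalised line grown from the stroma of human endometrium. The comparison took 6 of the 12 arrays of the study. The 3 IL1β cultures received interleukin 1 beta at 1 ng/ml for 48 h, and the 3 vehicle cultures received vehicle for the same time. All cultures had first been kept 24 h without serum. Each culture was a different passage of the line (passage 13 as replicate 1, passage 28 as replicate 2 and passage 15 as replicate 3), and the same 3 passages served every treatment. The other 6 arrays held cells given TNFα at 5 ng/ml together with IL1β at 1 ng/ml, or TNFα alone. They are used below to set the IL1β difference against them. They also entered the fit behind each SE and limma p, and the mean signal by which probes were chosen. All cultures came from 1 immortalised line, so the replicates are passages and not donors. The study asked which genes these cytokines change in endometrial stroma, with endometriosis as the background.

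IL1β binds the IL1 receptor and its accessory protein on the cell surface, which recruit the adaptor MYD88 and the IRAK kinases inside the cell. The signal runs through TRAF6 to NF-κB and to the stress-activated MAP kinases, and these switch on chemokines, cytokines, proteases and the inhibitors that end the signal. In the endometrium IL1 is known for drawing in leukocytes around implantation and menstruation and for altering the decidual response of stromal cells.

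Every array was read as log2 of its normalised intensity, a scale on which the median probe of each array lay near 0. Of 53671 probes tested, 23194 were listed with 1 gene, and these covered 18106 genes. On the first principal component (22.6% of the variance) vehicle replicate 3 stood at 171, TNFα replicate 3 at 68.7 and IL1β replicate 2 at 53.0, vehicle replicate 1 stood at −84.9, and the other 8 arrays lay between −33.8 and −18.2. On the second component (14.9%) the vehicle arrays stood at −127, −47.1 and −68.3, and all other arrays at −10.7 or above. The median SD of a probe was 0.332 over the IL1β arrays, against 0.528 over the vehicle arrays. It was 0.332 over the TNFα arrays and 0.176 over those given both cytokines. The SE of each limma difference pools the spread of all 4 groups, although it was unequal between them. All 21 measured stromal markers lay above the median signal of the array, COL1A1, DCN and FN1 among them. Of the leukocyte markers 5 of 18 and of the endothelial markers 3 of 12 did so, and PTPRC, the pan-leukocyte phosphatase CD45, averaged −3.95. ACTB and GAPDH differed by −0.07 ± 0.32 and −0.09 ± 0.15 (SE, IL1β minus vehicle), and after quantile normalization by 0.14 and 0.10.

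Limma called 3 of 53671 probes (0.00559%), all higher with IL1β, at a Benjamini-Hochberg adjusted p under 0.05, and 9.67% had an unadjusted p under 0.05. The 3 called probes belonged to 2 genes. One is SOD2, the superoxide dismutase of the mitochondrial matrix and a textbook NF-κB target. The other is HSD11B1, the enzyme that regenerates active cortisol from cortisone inside the cell. Because so few probes passed, the other genes are described by whether the 3 IL1β arrays lay apart from the 3 vehicle arrays. Over the representative probes of 17434 genes with all 6 values, 2.68% stood higher on each IL1β array than on all 3 vehicle arrays and 8.3% were lower on every one. With 3 arrays on each side the smallest two-sided p of an exact permutation test is 0.1, so this separation carries no test of its own.

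SOD2 stood at 5.88, 5.66 and 5.25 on the IL1β arrays, against 1.70, 2.17 and 2.47 on the vehicle arrays. The groups lay far apart. It rose by 3.49 ± 0.29 (SE, n = 3 each; limma adjusted p = 0.0123), an 11.2-fold difference. A second SOD2 probe gave 0.07 ± 0.18 (adjusted p = 0.931), so the 2 probes of the gene disagree. With the passage as a block SOD2 missed the threshold (adjusted p = 0.0594), as it did without IL1β replicate 2 (0.0577), vehicle replicate 1 (0.0667) or vehicle replicate 2 (0.057).

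HSD11B1 stood at 5.13, 3.87 and 4.03 on the IL1β arrays, against 0.00, −1.39 and −0.21 on the vehicle arrays. The lowest IL1β array lay well above the highest vehicle array. It rose by 4.87 ± 0.47 (SE, n = 3 each; limma adjusted p = 0.0227), and a second probe rose by 4.51 ± 0.45 (adjusted p = 0.0227). The vehicle values lay near or below the median probe of the array, so no fold is given, and with an offset before the log the difference was 4.73. Leaving out any 1 of the 6 arrays moved its adjusted p to between 0.0577 and 0.136 while the difference stayed between 4.45 and 5.14. A fit of the 6 arrays alone called neither gene (adjusted p = 0.394 for HSD11B1 and 0.332 for SOD2).

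The 15 largest differences upward among well-measured genes without overlap ran from 2.64 to 5.38 on the log2 scale, and chemokines made up 5 of them. A gene was well measured if its mean over all arrays lay above the median signal, so its vehicle values could still be dim. Of the 6 measured neutrophil-attracting CXCL chemokines, CXCL2, CXCL3, CXCL6 and CXCL8 stood higher on each IL1β array than on all 3 vehicle arrays and 0 were lower on every one. The share higher was 66.7%, against 2.68% of all genes, and the list's median difference was 1.64, against −0.15 over all genes. None of the 6 was called. CXCL2, a ligand of the neutrophil receptor CXCR2, stood at 5.99, 5.31 and 5.33 with IL1β, against 0.59, −0.98 and 0.88 with vehicle. The difference of 5.38 ± 0.71 (SE; limma adjusted p = 0.139) had the largest size of any well-measured gene without overlap. CXCL8, interleukin 8, stood at 9.13, 8.96 and 9.22 with IL1β, against 4.81, 4.11 and 4.63 with vehicle. Its difference was 4.59 ± 0.57 (adjusted p = 0.132). The adjusted p of both fell under 0.05 with an offset before the log (0.0421 for CXCL2 and 0.0348 for CXCL8), without dim probes (0.0268 and 0.0197) and with a variance prior that follows the signal (0.0258 and 0.0157). CXCL3 averaged 3.91 ± 0.43 with IL1β and 2.19 ± 0.79 with vehicle (SD, n = 3 each), and CXCL6 averaged −0.79 ± 0.71 with IL1β and −2.34 ± 0.55 with vehicle. CXCL5 differed by 1.22 ± 0.59 with overlapping groups, and PPBP by −0.12.

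**Figure D1:**
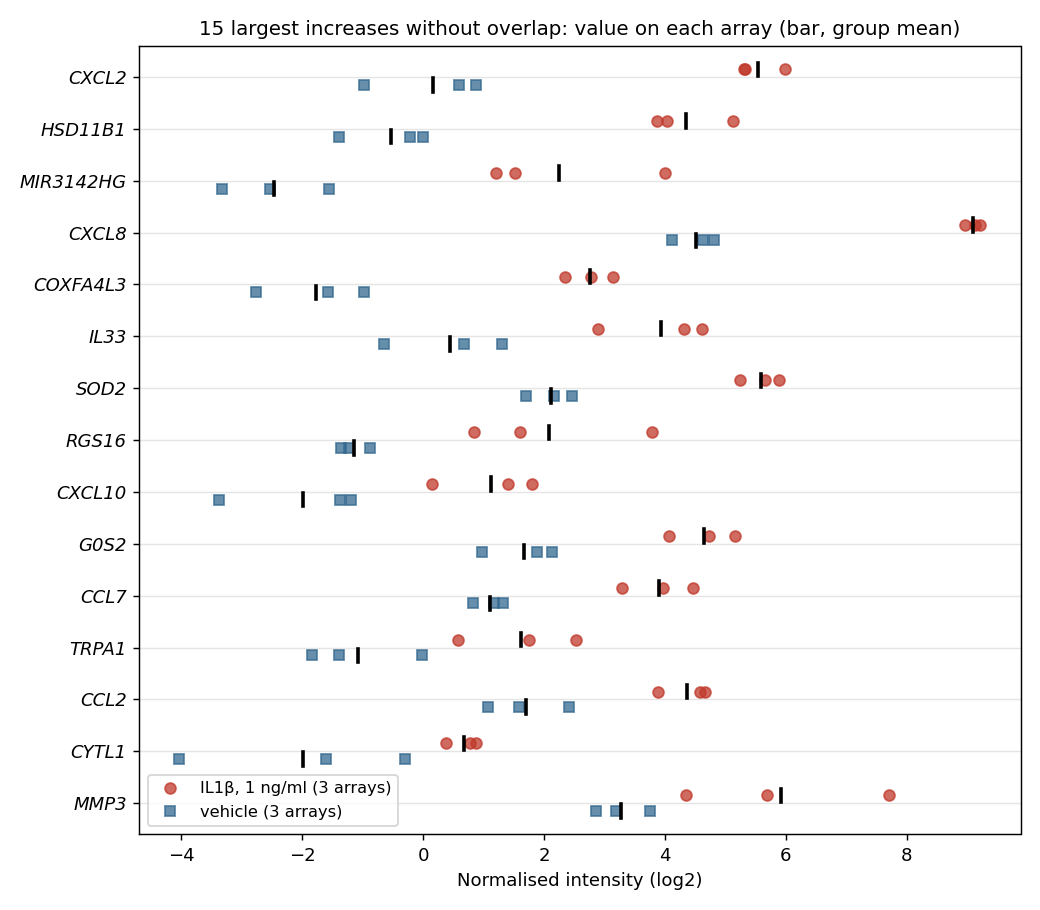
Each row is 1 of the 15 genes with the largest log2 difference upward among genes above the median signal whose groups did not overlap; the x axis is normalised intensity (log2). Red circles are the 3 IL1β arrays, blue squares the 3 vehicle arrays and black bars the group means. CXCL2 leads at a difference of 5.38, and MMP3 closes at 2.64.

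The promoters of these chemokines are shown because the CXCL genes lie on chromosome 4 and many carry the same NF-κB motif. The NF-κB (κB) consensus was taken as GGGRNNYYCC, where R is A or G, Y is C or T and N is any base. It was sought on both strands in RefSeq promoter windows (GRCh38.p14) of 300 bases, 250 before and 50 after the start site. Of the 7 CXCL genes listed, 5 held it (CXCL1, CXCL2, CXCL3, CXCL5 and CXCL6), or 71.4%, against 16.1% of the 14273 tested genes with a window. In each of the 5 it matched on both strands, the 2 matches being offset by 1 base, and the first began 78 to 91 bases before the start site. Of the 15 genes with the largest differences upward 12 had a window, and CXCL2, CXCL10 and MIR3142HG held the motif (25%). Of the 15 with the largest differences downward 12 had a window, and ACTC1, CDC42EP3, MEST and RGS7 held it (33.3%). The 250 bases before the start site follow for the 5 genes discussed here, 5′ to 3′ on the gene's own strand, with the motif in capitals. CXCL8, SOD2 and HSD11B1 had windows without a match to this consensus. The CXCL8 window held tggaatttcc, which departs from it in the first base only. A window without a match is thus not shown to lack an NF-κB site.
CXCL2 (chr4:74099196-74099445, minus strand): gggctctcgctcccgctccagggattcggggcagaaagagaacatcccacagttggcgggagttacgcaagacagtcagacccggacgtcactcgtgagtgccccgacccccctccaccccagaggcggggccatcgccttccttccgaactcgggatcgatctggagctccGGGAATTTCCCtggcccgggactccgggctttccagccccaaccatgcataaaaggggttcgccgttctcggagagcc
CXCL3 (chr4:74038690-74038939, minus strand): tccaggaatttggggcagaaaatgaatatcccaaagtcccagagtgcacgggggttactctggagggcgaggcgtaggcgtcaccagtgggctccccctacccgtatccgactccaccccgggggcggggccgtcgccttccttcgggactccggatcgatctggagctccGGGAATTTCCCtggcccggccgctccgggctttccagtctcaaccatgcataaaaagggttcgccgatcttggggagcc
CXCL6 (chr4:73836428-73836677, plus strand): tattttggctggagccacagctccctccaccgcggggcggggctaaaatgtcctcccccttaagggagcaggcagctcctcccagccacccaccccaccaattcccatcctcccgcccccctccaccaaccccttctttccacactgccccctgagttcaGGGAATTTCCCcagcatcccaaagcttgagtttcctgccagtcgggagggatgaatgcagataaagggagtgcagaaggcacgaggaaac
CXCL10 (chr4:76023498-76023747, minus strand): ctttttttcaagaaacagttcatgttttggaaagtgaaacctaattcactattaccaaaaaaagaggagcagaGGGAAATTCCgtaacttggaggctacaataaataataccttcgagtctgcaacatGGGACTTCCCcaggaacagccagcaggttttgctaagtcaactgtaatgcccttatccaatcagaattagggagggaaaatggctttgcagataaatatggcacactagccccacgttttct
MIR3142HG (chr5:160468001-160468250, plus strand): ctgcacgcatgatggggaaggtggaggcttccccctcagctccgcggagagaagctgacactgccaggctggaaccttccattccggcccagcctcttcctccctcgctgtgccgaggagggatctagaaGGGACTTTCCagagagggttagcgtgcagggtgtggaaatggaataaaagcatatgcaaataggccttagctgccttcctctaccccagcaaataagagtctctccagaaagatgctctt

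Of 14 other chemokines measured, 13 had all 6 values. CCL2, CCL7, CCL11, CXCL10 and CXCL11 stood higher on each IL1β array than on all 3 vehicle arrays, and CX3CL1 was lower on every one (1.85, 1.42 and 1.75 with IL1β, against 1.85, 2.01 and 1.92 with vehicle, the nearest arrays being alike at this precision). The shares were 38.5% higher and 7.69% lower, against 2.68% and 8.3% of all genes, and the list's median difference was 1.11. CCL2, the main attractant of monocytes, stood at 4.58, 4.66 and 3.88 with IL1β, against 1.08, 1.59 and 2.42 with vehicle. The difference of 2.67 ± 0.38 had a limma adjusted p of 0.178, and of 0.0364 without dim probes. CCL7, which shares a receptor with CCL2, stood at 4.46, 3.29 and 3.97 with IL1β, against 0.82, 1.17 and 1.32 with vehicle. CXCL10, the T cell attractant best known as an interferon target, stood at 1.80, 1.40 and 0.15 with IL1β, against −3.38, −1.37 and −1.20 with vehicle. All 3 were separated, CCL7 most tightly on the vehicle side. CCL5 averaged 1.28 ± 0.52 with IL1β (SD, n = 3) and 0.16 ± 0.89 with vehicle (n = 2, since vehicle replicate 1 had no value), and its groups overlapped. CCL20, an attractant of dendritic cells, differed by 0.84 ± 0.56.

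Among 23 cytokines and colony-stimulating factors, 6 were higher on every IL1β array (IL32, IL33, IL34, IL7, IL23A and TNFSF15). That was 26.1%, against 2.68% of all genes, and TNFSF10 was lower on every one (4.35%, against 8.3%). A second TNFSF15 probe overlapped at −0.10 ± 0.19. The median difference was 0.10, so the list as a whole lay near 0. IL33, an alarmin of the IL1 family, stood at 4.61, 2.90 and 4.31 with IL1β, against 1.31, −0.64 and 0.68 with vehicle, a difference of 3.49 ± 0.59 (limma adjusted p = 0.225). IL32, a proinflammatory cytokine, stood at 5.49, 5.59 and 4.54 with IL1β, against 2.84, 3.92 and 3.62 with vehicle. Both were clear of the vehicle arrays. IL6 did not separate, at 4.06, 3.21 and 4.31 with IL1β against 2.19, 2.80 and 3.43 with vehicle, a difference of 1.06 ± 0.38. The IL6-family cytokines IL11 and LIF, which serve decidualization and implantation, differed by 1.23 ± 0.63 and −0.27 ± 0.60, and the granulocyte factor CSF3 by −0.05 ± 0.30.

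Of 21 measured genes in the list of NF-κB subunits and feedback, 4 were higher on every IL1β array (SOD2, NFKBIZ, TNIP3 and ZC3H12A), or 19% against 2.68% of all genes. SOD2 is a target of NF-κB and neither a subunit nor a feedback gene. The list was written with earlier results of these data known, and SOD2 raises its share. In this list 0 were lower on every one (8.3% of all genes were), and 18 had a difference above 0. The list's median was 0.75. ZC3H12A, the ribonuclease regnase-1 that degrades cytokine messages, stood at 4.28, 3.22 and 3.96 with IL1β, against 2.52, 2.64 and 2.42 with vehicle. NFKBIZ, the nuclear cofactor that NF-κB needs at some late targets, stood at 4.89, 4.91 and 5.01 with IL1β, against 4.16, 3.79 and 2.35 with vehicle. The IL1β arrays agreed closely here and the vehicle arrays did not. TNFAIP3, the ubiquitin-editing inhibitor A20, averaged 1.50 ± 0.66 with IL1β and 0.17 ± 0.56 with vehicle with overlap by 1 array. The subunits RELB, NFKB1 and NFKB2 differed by 0.95 ± 0.42, 0.74 ± 0.47 and 0.55 ± 0.47.

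Most genes of the receptor pathway itself gave smaller values. Of 20 measured genes of IL1 receptor signalling, MAP3K8 was higher on every IL1β array and PELI2, an E3 ligase of the IRAK complex, was lower on every one. Each was 5.26% of the members with all 6 values, against 2.68% of all genes higher and 8.3% lower. The list's median was −0.04. MAP3K8, the kinase Tpl2 that links NF-κB1 to the ERK pathway, stood at 2.43, 1.63 and 2.04 with IL1β, against 0.82, −0.03 and −0.50 with vehicle, a difference of 1.94 ± 0.37 (limma adjusted p = 0.264), and a second, dim probe overlapped at 0.65 ± 0.71. IRAK3, the inactive kinase that restrains the receptor complex, differed by 1.10 ± 0.54 with overlapping groups. The decoy receptor IL1R2, the accessory protein IL1RAP, MYD88, IRAK1 and IRAK2 differed by 0.04 ± 0.25, 0.41 ± 0.80, −0.27 ± 0.30, −0.03 ± 0.27 and −0.24 ± 0.24, and each changed sign under some scaling or weighting or with an array or passage left out. The probes of IL1A, the other IL1 agonist, disagreed. The representative one differed by 0.57 ± 0.38 with overlapping groups, and a dimmer one stood at −0.43, −1.04 and 0.40 with IL1β, against −3.57, −2.83 and −1.60 with vehicle (2.31 ± 0.68, limma adjusted p = 0.431). IL1B, IL1RN and IL1R1 were not analysed here.

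**Figure D2:**
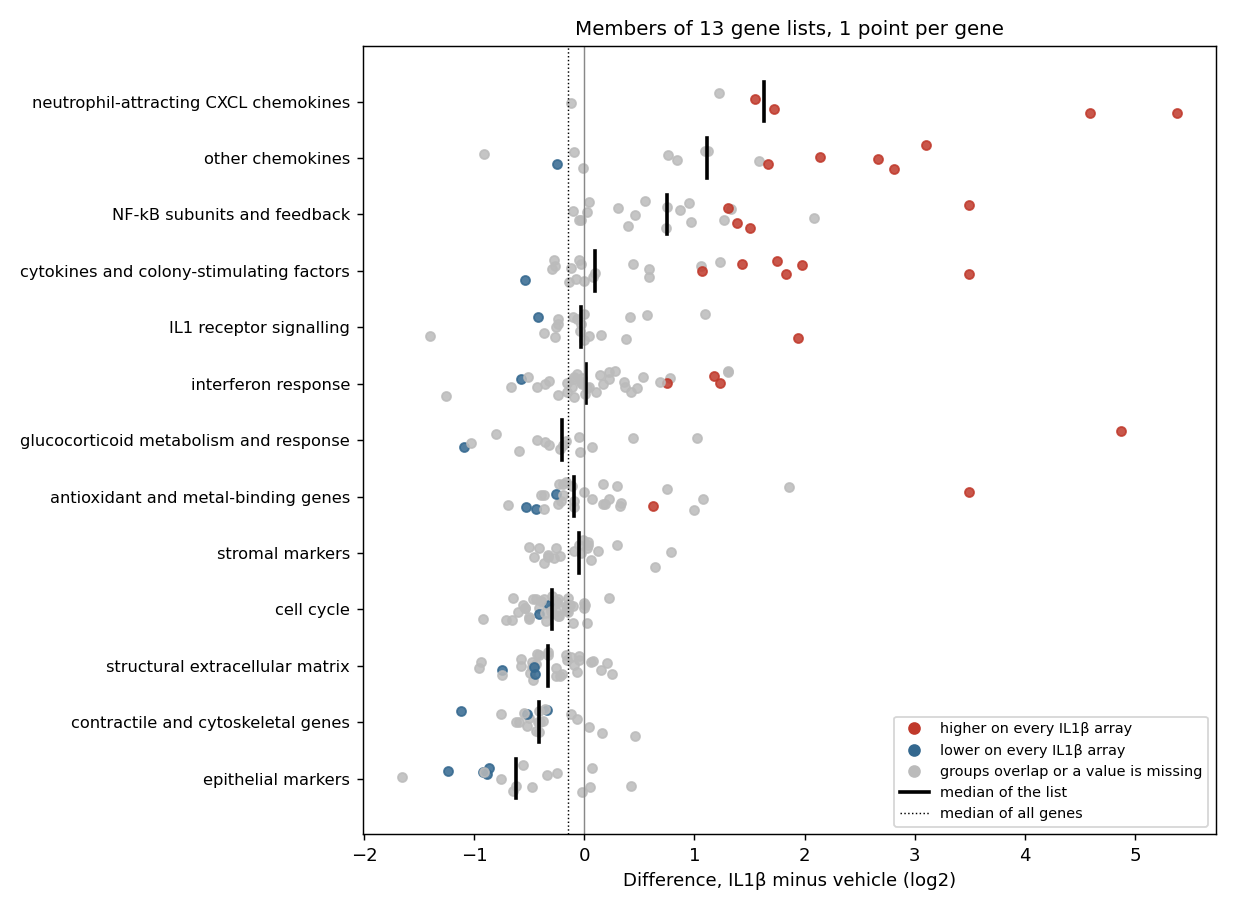
Each point is the log2 difference, IL1β minus vehicle, of 1 gene's representative probe, with lists down the page; red points were higher and blue points lower on every IL1β array than on all 3 vehicle arrays, grey points overlapped or lacked a value. Black bars are list medians (1.64 for the neutrophil-attracting CXCL chemokines, −0.62 for the epithelial markers), and the dotted line is the median of all genes at −0.15.

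MIR3142HG and COXFA4L3 are genes that contain microRNAs. MIR3142HG (chr5:160468251-160487426, GRCh38.p14) holds MIR146A and MIR3142. Its probe stood at 1.52, 1.21 and 4.01 with IL1β, against −2.53, −3.33 and −1.56 with vehicle, a difference of 4.72 ± 0.75 (limma adjusted p = 0.203). COXFA4L3 (chr15:45430610-45433340), a subunit-like protein of mitochondrial complex IV, holds MIR147B. It stood at 3.15, 2.34 and 2.77 with IL1β, against −2.77, −0.98 and −1.57 with vehicle, a difference of 4.53 ± 0.70 (adjusted p = 0.192). Both were separated by more than 2 units, and IL1β replicate 3 was the high array of MIR3142HG. Of the 12 largest differences upward that could be placed on a strand 2 held a microRNA, as did 2 of the 12 downward (MEST with MIR335 and CHRM2 with MIR490), or 16.7% each, against 4.48% of 14273 tested genes. The arrays gave no value for the mature microRNAs. Their RefSeq sequences are shown with the seed, bases 2 to 8, in capitals. miR-146a-5p is known to target IRAK1 and TRAF6, and no 2 of these share a seed.
miR-146a-5p (chr5:160485372-160485393, plus strand): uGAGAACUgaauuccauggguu
miR-3142 (chr5:160474492-160474513, plus strand): aAGGCCUUucugaaccuucaga
miR-147b-3p (chr15:45433098-45433118, plus strand): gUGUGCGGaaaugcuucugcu
miR-335-5p (chr7:130496126-130496148, plus strand): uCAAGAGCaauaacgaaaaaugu
miR-490-3p (chr7:136903242-136903263, plus strand): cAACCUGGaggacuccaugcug

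The remaining large differences upward fell in other roles. G0S2, the inhibitor of adipose triglyceride lipase, stood at 4.73, 4.06 and 5.16 with IL1β, against 0.97, 1.89 and 2.13 with vehicle. MMP3, the proteoglycan- and collagen-degrading stromelysin 1, stood at 5.69, 4.35 and 7.71 with IL1β, against 2.86, 3.76 and 3.19 with vehicle. MMP3 spread widely over the IL1β arrays (SD 1.69), with replicate 3 high, and its difference of 2.64 was 1.75 without that array. Of 20 metalloproteinases and TIMPs it was the single member higher on every IL1β array (5% of the list, against 2.68% of all genes), MMP10 was lower on every one, and collagenase MMP1 differed by 0.23 ± 0.76. RGS16, which shortens G protein signals, averaged 2.08 ± 1.52 with IL1β and −1.14 ± 0.25 with vehicle, and a second, dim probe was separated by less (0.53 ± 0.21). The irritant-sensing channel TRPA1 averaged 1.62 ± 0.99 with IL1β and −1.08 ± 0.95 with vehicle. CYTL1, a small secreted protein, averaged 0.67 ± 0.26 with IL1β and −1.98 ± 1.89 with vehicle, where replicate 1 lay lowest at −4.03, and its difference of 2.65 was 1.62 without that array. CTSS, the lysosomal protease of antigen processing, stood at 3.72, 3.17 and 3.67 with IL1β, against 1.60, 1.27 and 1.11 with vehicle. Its difference of 2.19 ± 0.30 had a limma adjusted p of 0.139, and of 0.0268 without dim probes.

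Enzymes near these pathways gave mixed values. In the prostaglandin list PTGES, the inducible prostaglandin E2 synthase, stood at 2.71, 1.70 and 1.55 with IL1β, against 1.12, 0.58 and 0.38 with vehicle. PTGS2, cyclooxygenase 2, averaged −0.77 ± 0.28 with IL1β and −1.06 ± 0.12 with vehicle on a dim probe with overlapping groups. PTGIS, the prostacyclin synthase, and PTGER1, a receptor of prostaglandin E2, were lower on every IL1β array on dim probes, by −1.74 ± 0.95 and −1.12 ± 0.40. In this list 5.56% were higher on every IL1β array and 11.1% lower, against 2.68% and 8.3% of all genes. The median of the 19 genes measured was −0.05. KYNU, kynureninase of tryptophan breakdown, NAMPT, which makes the NAD precursor, and GCH1, which starts tetrahydrobiopterin synthesis, were each higher on every IL1β array, by 1.67 ± 0.52, 1.41 ± 0.37 and 1.25 ± 0.42. A second, dim NAMPT probe overlapped at 0.20 ± 0.28. HAAO, a later enzyme of the kynurenine pathway, stood at 4.05, 3.32 and 3.75 with IL1β, against 4.53, 4.36 and 4.13 with vehicle. Of the 18 genes measured in the list of these 4, 16.7% were higher on every IL1β array and 5.56% lower, against 2.68% and 8.3% of all genes. In that list 9 lay above 0 and 9 below, with a median of −0.03. HSD11B2, which inactivates cortisol and so works against HSD11B1, stood at −1.84, −2.74 and −3.21 with IL1β, against −1.31, −1.72 and −1.50 with vehicle. These HSD11B2 values all lay below the median probe of the array, and the nearest arrays of the 2 groups were close (−1.84 and −1.72). KYNU and HAAO lay on opposite sides of vehicle, as did HSD11B1 and, at this low signal, HSD11B2. Of these genes only HSD11B1 was called. Of 16 genes of glucocorticoid metabolism and response, 1 was called (HSD11B1 itself), against 2 of all 18106 genes. In this list 6.25% were higher on every IL1β array and 6.25% lower, against 2.68% and 8.3% of all genes. The list's median was −0.2. The cortisol-induced kinase SGK1 and transcription factor KLF15 differed by −0.80 ± 0.33 and −1.03 ± 0.40 with overlap.

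Among the transcription factors CEBPD, a partner of NF-κB at acute-phase genes, stood at 4.34, 3.61 and 3.38 with IL1β, against 2.31, 2.36 and 2.10 with vehicle. The stress factor ATF3 stood at 3.98, 3.50 and 3.93 with IL1β, against 2.93, 3.01 and 1.88 with vehicle. They were the members without overlap among 19 measured in their list (10.5% higher, against 2.68% of all genes), whose median was 0.05. Of 40 interferon-response genes 3 (ISG20, BST2 and EPSTI1) were higher on every IL1β array, or 7.5% against 2.68% of all genes. IFIT2 was lower on every one (2.5%, against 8.3%), and the median was 0.01. Of 24 death-receptor and apoptosis genes CASP4, BID, TNFRSF11B and CD40 were higher on every IL1β array, by 0.53 to 0.96. That was 16.7% of the list, against 2.68% of all genes, and 0 were lower on every one. The list's median was −0.09 with 14 below 0, and a second CASP4 probe overlapped at 0.30 ± 0.41.

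Among well-measured genes without overlap the largest downward differences were smaller than the upward ones. Over all 18106 genes, however, more lay below −1 (841) than above 1 (381). The filter used the mean signal over all arrays, most of which had received a cytokine. A gene dim with vehicle alone could pass it, and a gene bright with vehicle alone could fail it. The contrast in size can thus come in part from the filter, and this was not tested. The 15 largest well-measured decreases without overlap ran from −1.43 to −1.01. Limma's adjusted p ran from 0.39 to 0.533, so none was called. Some 1-gene probes outside these 15 had larger or better-supported decreases, such as −2.56, −1.55 and −1.39 (limma adjusted p = 0.192 each) and −2.35 (0.203). None of them was called either. CRABP2, a retinoic acid carrier of the cell, stood at 4.09, 3.93 and 3.99 with IL1β, against 5.16, 5.20 and 5.10 with vehicle. The difference of −1.15 ± 0.28 had the lowest adjusted p of the 15, and both groups were tight. PPARG, the nuclear receptor of adipocyte differentiation, stood at 2.25, 1.95 and 0.80 with IL1β, against 2.93, 3.02 and 2.81 with vehicle. The imprinted gene MEST stood at 2.32, 2.18 and 2.37 with IL1β, against 3.74, 3.53 and 2.95 with vehicle. The small heat shock protein HSPB6 had the largest of the 15 differences with all arrays in, at 2.14, 2.64 and 0.74 with IL1β, against 3.10, 3.31 and 3.41 with vehicle. IL1β replicate 3 was the lowest IL1β array in 11 of the 15 and replicate 2 in 4. Without IL1β replicate 3 the difference of HSPB6 was −0.89, that of ITIH3 −0.59, of KRT19 −0.64, of DKK1 −0.60, of ANGPT1 −0.84 and of PPARG −0.82. Without vehicle replicate 1 that of FBXO3 was −0.51 and of CHRM2 −0.72, and without vehicle replicate 3 that of LINC00641 was −0.64. These 9 moved by over 1.5 times with 1 array left out, while CRABP2 stayed between −1.19 and −1.11. ANGPT1, the vessel-stabilising ligand of TIE2, averaged 2.11 ± 0.86 with IL1β and 3.43 ± 0.27 with vehicle. DKK1, a secreted WNT inhibitor, averaged 5.16 ± 0.85 with IL1β and 6.25 ± 0.30 with vehicle. IGFBP3, which binds insulin-like growth factors, averaged 3.35 ± 0.53 with IL1β and 4.42 ± 0.41 with vehicle. These genes had tighter vehicle than IL1β arrays. The cardiac actin ACTC1 averaged 5.40 ± 0.65 with IL1β and 6.52 ± 0.35 with vehicle. The muscarinic receptor CHRM2, the G protein regulator RGS7, the hyaluronan-linked ITIH3, the ubiquitin ligase subunit FBXO3, the cytoskeletal effector CDC42EP3 and the noncoding LINC00641 made up the rest with KRT19. The probes of CHRM2 and FBXO3 disagreed, since a dim CHRM2 probe gave 1.15 ± 0.79 and other FBXO3 probes gave 0.39 ± 0.35 and −0.32 ± 0.23, all with overlapping groups. Second probes of PPARG (−0.58 ± 0.19), RGS7 (−0.89 ± 0.28) and KRT18 (−0.74 ± 0.27) were lower on every IL1β array too.

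**Figure D3:**
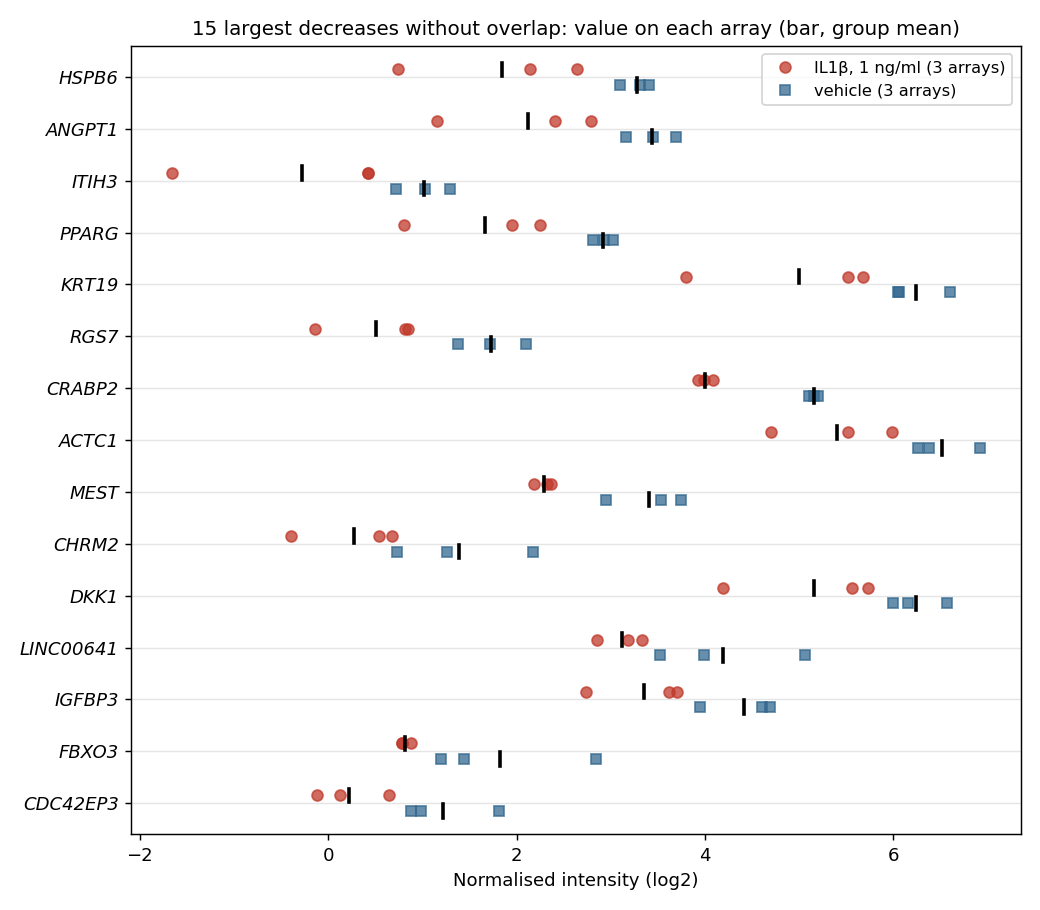
Each row is 1 of the 15 genes with the largest log2 difference downward among genes above the median signal whose groups did not overlap; the x axis is normalised intensity (log2). Red circles are the 3 IL1β arrays, blue squares the 3 vehicle arrays and black bars the group means. The differences run from −1.43 (HSPB6) to −1.01 (CDC42EP3), and CRABP2 has the tightest groups.

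Epithelial keratins were among the genes below vehicle in this stromal line. Of 16 epithelial markers with all 6 values, 4 were lower on every IL1β array (EPCAM, KRT8, KRT18 and KRT19), or 25% against 8.3% of all genes. In this list 0 were higher on every one, and the median was −0.62. KRT19 stood at 5.52, 5.68 and 3.80 with IL1β, against 6.06, 6.60 and 6.05 with vehicle. KRT18 stood at 2.67, 2.67 and 2.53 with IL1β, against 3.28, 3.88 and 3.35 with vehicle. Neither was called (limma adjusted p = 0.455 and 0.431). Of the 17 epithelial markers measured 8 lay above the median signal, and EPCAM averaged −1.36. The summed intensity of the 14 markers with all 12 values was 45.7 to 84.5 on IL1β arrays, against 108 to 154 on vehicle arrays. Such a sum follows its brightest members. KRT19 was brighter than KRT18 on all 6 arrays and differed by −1.24, and by −0.64 without IL1β replicate 3. In bulk RNA fewer cells of a type and less RNA per cell cannot be told apart, and the part of these markers in the other differences was not tested.

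Matrix, contractile and cell cycle lists lay below 0, with shares separated downward of 9.09%, 14.3% and 4.44%, against 8.3% of all genes. Of 33 structural matrix genes, FBN1, SPARC and NID1 were lower on every IL1β array and 28 had a difference below 0 (84.8%, against 67.3% of all genes; median −0.33). Of 21 contractile and cytoskeletal genes ACTC1, TPM4 and CNN3 were lower on every one (median −0.41), and of 45 cell cycle genes CCND2 and CDKN2B were (median −0.29, with 40, or 88.9%, below 0). Second probes of FBN1, NID1 and SPARC overlapped, at −0.43 ± 1.01, −0.63 ± 0.97 and −0.53 ± 0.24. After quantile normalization, which moved the median of all probes by 0.12, these medians were −0.07, −0.18 and −0.17. By their representative probes the 21 stromal markers had 0 separated members and a median of −0.05. Their summed intensity was 1740 to 2760 with IL1β, against 1740 to 3920 with vehicle. A dim further probe of DCN was lower on every IL1β array (−0.57 ± 0.23), and another dim one overlapped at −1.22 ± 0.55. Of 20 measured decidualization genes and steroid receptors, CRABP2 and the estrogen receptor ESR1 were lower on every IL1β array (10%, against 8.3% of all genes). The decidual products PRL and IGFBP1 differed by 0.25 ± 0.21 and 0.32 ± 0.57. The representative probe of the progesterone receptor PGR differed by −0.48 ± 0.33 with overlap, and its other probes, both well measured, were lower on every IL1β array, by −0.71 ± 0.17 and −0.59 ± 0.20 (limma adjusted p = 0.395 and 0.44). TERT, whose probe was dim, differed by −0.19 ± 0.34.

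The excess of lower over higher probes varied with the signal. Over all probes with 6 values, 1762 of 50393 (3.5%) were higher on every IL1β array and 4609 (9.15%) lower on every one. With the probes in 4 equal bins of mean signal, 1.32% of the dimmest bin were higher and 14.4% lower, and 1.73% of the brightest were higher and 11.5% lower. In the bin next to the dimmest 6.38% were higher and 6.08% lower. The higher probes made up 27.7% of all separated probes, and 47.1% after quantile normalization (2411 higher and 2704 lower). The share of higher probes thus moved with the scaling. The representative probe of every gene named above as separated kept its sign under every alternative run. For most alternatives this was fixed in advance. Without overlap, leaving out or weighting arrays cannot turn the sign, and only a rescaling of the arrays could have done so.

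**Figure D4:**
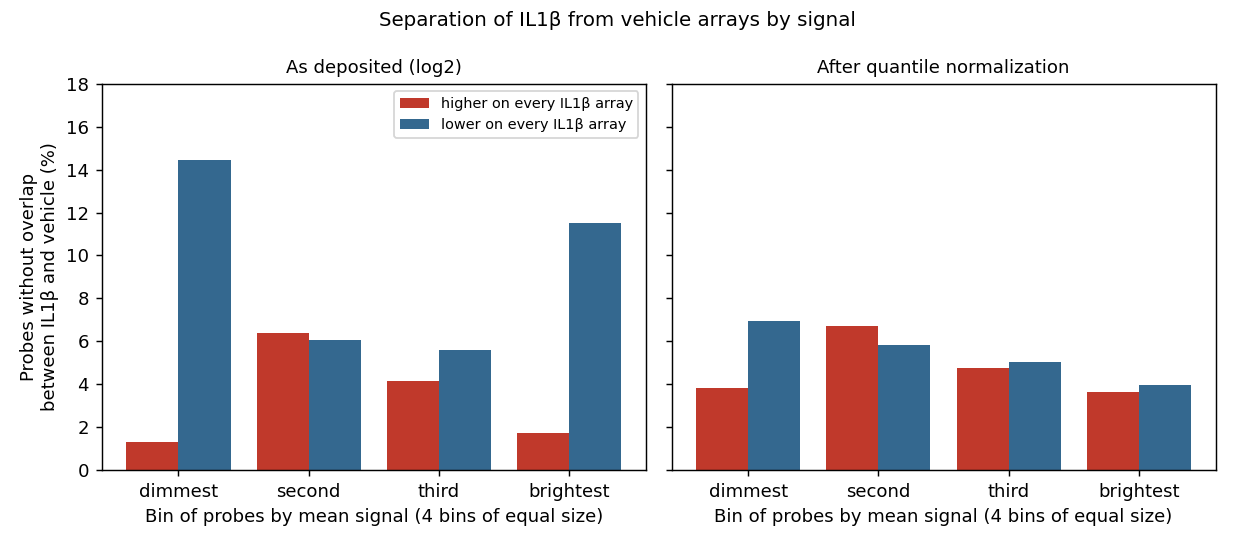
Bars give the percent of probes, by bin of mean signal, that were higher (red) or lower (blue) on every IL1β array than on all 3 vehicle arrays, as deposited on the left and after quantile normalization on the right; the y axis starts at 0. As deposited the lower bars reach 14.4% in the dimmest and 11.5% in the brightest bin.

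The cells given both cytokines, set against those given TNFα alone, show the IL1β difference in 6 arrays that the comparison with vehicle did not use. Limma called 1 of 53671 probes there (0.00186%), and 0 with the passage as a block. The passages were the same as in the other comparison. The 2 arrays highest on the first principal component, vehicle replicate 3 (171) and TNFα replicate 3 (68.7), were both passage 15. Each was on the subtracted side of 1 comparison, while IL1β replicate 2 (53.0) was on the other side. The part of these arrays in the shared signs was not tested. Of the 15 largest differences upward, 13 had the same sign and 8 were again higher on every array (5.93% of 17527 genes were). Of the 15 downward 13 had the same sign and 8 were again lower on every array (17.8% of genes were). Above the median signal 170 of 215 genes higher on every IL1β array had the same sign (79.1%, against 36.6% of all 12012 genes), and 804 of 892 lower ones did (90.1%, against 63.4%). Over those 12012 genes, which share arrays and probes and are not independent, the 2 sets of differences had a Pearson r of 0.307 and a Spearman rho of 0.224. CXCL2 stood at 6.47, 6.86 and 6.73 with both cytokines, against 2.99, −0.01 and 2.31 with TNFα alone, a difference of 4.92 ± 0.71 (limma adjusted p = 0.251). CXCL8 stood at 9.36, 9.48 and 9.33 with both, against 9.20, 6.82 and 9.49 with TNFα alone. So CXCL2 separated again and CXCL8 did not. SOD2 and HSD11B1 differed by 0.82 ± 0.29 and 1.40 ± 0.47 in TNFα-treated cells. The interaction, the IL1β difference with TNFα minus that without, was −2.67 ± 0.41 for SOD2 and −3.48 ± 0.67 for HSD11B1, and limma called 0 probes for it (0.0%; lowest adjusted p = 0.843; 1927 probes at unadjusted p under 0.05). IL6 stood at 6.05, 5.36 and 5.99 with both, against 3.70, 3.24 and 3.70 with TNFα alone.

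**Figure D5:**
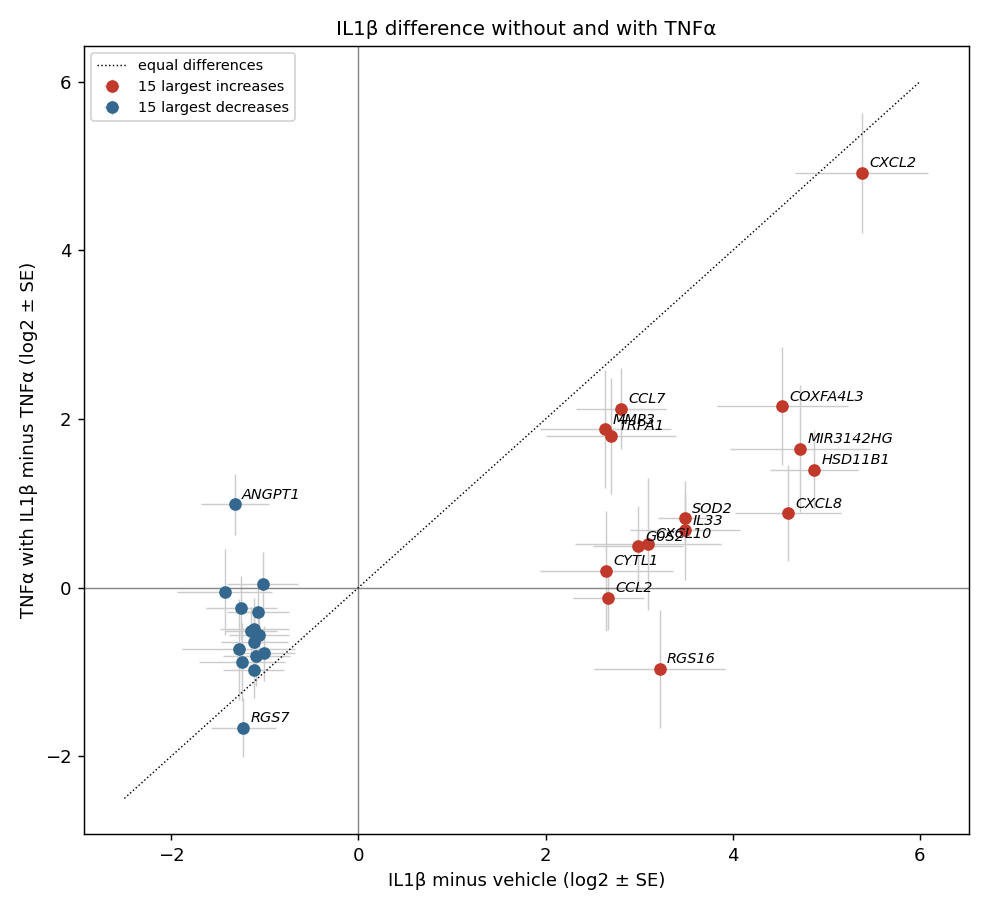
The x axis is the log2 difference of IL1β minus vehicle and the y axis that of TNFα with IL1β minus TNFα, each with its SE as a grey bar, for the 15 largest differences upward (red) and downward (blue); the dotted line marks equal differences. CXCL2 lies near the line at 5.38 and 4.92, the other red genes lie further below it, and RGS16 lies below 0 at −0.96.

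Set directly against TNFα alone, IL1β gave 0 called probes of 53671 with limma (0.0%; lowest adjusted p = 0.222, with 2706 at unadjusted p under 0.05). CXCL2 was higher with IL1β than with TNFα on every array (difference 3.78, adjusted p = 0.567), as 2.33% of genes were, and 13.0% were lower. CCL5, the T cell and monocyte attractant RANTES, stood at 1.83, 0.78 and 1.24 with IL1β, against 7.02, 4.92 and 7.10 with TNFα. IL32 stood at 5.49, 5.59 and 4.54 with IL1β, against 7.58, 7.59 and 7.62 with TNFα. Their differences were −5.06 ± 0.60 and −2.39 ± 0.33 (adjusted p = 0.222 each). Both were lower on every IL1β array. The interleukin subunit EBI3 (−2.24) and the antiviral membrane proteins IFI27 (−2.00) and BST2 (−1.91) also lay below their TNFα values. CRABP2 and MEST, both below vehicle with IL1β, stood above their TNFα values by 1.48 and 1.80 and were higher on every IL1β array. In HSD11B1 and SOD2 IL1β and TNFα differed by −0.85 ± 0.47 and −0.47 ± 0.29.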

How the data were processed

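RNA of 12 cultures, 3 in each of 4 groups, had been hybridised to 1-colour CodeLink arrays. The deposited values are normalised intensities, 1 per probe and array. The software for image analysis, background and normalization is not given in the sources used here. The code −9999 (0.716% of values) and values at or below 0 (1.10%) were taken as missing, and log2 of the rest was used without further scaling. Of 54359 probes, 53671 with at least 2 values in every group were tested. The platform annotation gives 1 gene for 23472 probes, several for 905 and no gene for 29982. Symbols were updated through Entrez identifiers for 23434 probes, and no gene was named from a probe with several. Where a gene had several probes, the one with the highest mean signal over all arrays was its representative, chosen without regard to group.

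Groups were compared in 1 limma fit over all 12 arrays (R 4.3.3, limma 3.58.1, lmFit and eBayes), which was tested on simulated data. Adjusted p-values are Benjamini-Hochberg values over all tested probes, with a threshold of 0.05. The genes named were the 15 largest differences each way among genes above the median signal without overlap, and up to 4 per list. Others named as separated, or against TNFα, were chosen after their values were seen. Members and gene lists were chosen with earlier results of these data known.

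Replicates are passages, so p-values measure the spread between passages of 1 line, and 3 arrays per group limit the precision. The replicate numbers mark the same passage in every group, per the labels. The deviations of IL1β and vehicle arrays of the same number correlated at 0.065, −0.107 and −0.196, and the protocols name no block, so the fit used none and the block was an alternative. The other alternatives were an offset of 0.0678 before log2, quantile normalization, arrays centred on their medians, no dim probes (the lower 50% by mean signal), complete probes, 1 probe per gene, a trended robust prior, array weights, the compared groups alone, each array or passage left out, and 3 arrays that lie apart left out. Those 3 were vehicle replicate 3, IL1β replicate 2 and TNFα replicate 3, highest on the first principal component. Vehicle replicate 1, lowest at −84.9, was kept. The alternatives of the interaction were added after seeing the data.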

Additional observations from a re-analysis of the deposited data

How the results depend on the processing

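The 3 probes called for IL1β against vehicle became 5 with an offset before log2, 8 without dim probes, 8 with the trended robust prior, 7 with array weights, and 0 with the compared groups alone (2937 at unadjusted p under 0.05 in limma) or without the 3 arrays that lie apart (7277). Leaving out 1 array or passage gave 0 to 3, with 0 without IL1β replicate 2, vehicle replicate 1 or vehicle replicate 2. With the passage as a replicate block 2 probes were called. HSD11B1 kept its call (adjusted p = 0.0382), SOD2 lost it, and the block changed no other call of a gene named here. IL1β against TNFα gave 0 called probes, 4 with array weights, and 0 to 5 when an array or passage was left out (5 without TNFα replicate 2). Both cytokines against TNFα gave 1, then 2 after quantile normalization, 3 with an offset, 2 with the trended prior, 56 with array weights, 0 with the block or the compared groups alone, and 0 in every fit with an array or passage left out. The interaction gave 0, and 0 to 1 with an array or passage left out. The 1762 probes higher on every IL1β array became 788 without dim probes, 467 with 1 probe per gene, 7463 without the 3 arrays that lie apart, and 2538 to 7703 when 1 was left out. The 4609 lower ones became 2704 after quantile normalization, 2286 without dim probes, 1447 with 1 probe per gene, 14100 without the 3 arrays, and 6109 to 13797 when 1 was left out. Fewer arrays separate more easily. Signs turned after quantile normalization for IRAK1 (0.22), CSF3 (0.13), ACTB (0.14), GAPDH (0.10) and PPBP (0.10). They turned with array weights for IL1R2 (−0.06), IL1RAP (−0.35) and CSF3 (0.12), and without the 3 arrays for IL1RAP (−0.84), LIF (0.32), CSF3 (0.36) and TERT (0.07). With 1 array or passage left out the differences ran over −0.00 to 1.20 for NFKB1, −0.27 to 0.28 for IL1R2, −0.72 to 1.21 for IL1RAP, −0.68 to 0.06 for MYD88, −0.27 to 0.26 for IRAK1, −0.47 to 0.10 for IRAK2, −0.94 to 0.80 for LIF, −0.34 to 0.24 for CSF3, −1.12 to 1.38 for MMP1, −0.22 to 0.89 for IGFBP1, −0.51 to 0.32 for TERT, −0.60 to 0.33 for ACTB and −0.42 to 0.22 for PPBP. None of these genes was separated, and leaving out arrays could not have turned the sign of a separated gene. Beyond the construction of each setting the cause was not tested.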

Other observations

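Complement and MHC class I genes had list medians of 0.11 and 0.14, against −0.15 over all genes. Of 17 MHC class I presentation genes 14 lay above 0. In this list 1 (PSMB10) was higher on every IL1β array, or 5.88% against 2.68% of all genes, and 0 were lower on every one. A second, dim PSMB10 probe overlapped at 0.31 ± 0.20. Of 17 complement and acute-phase genes 3 (17.6%, against 8.3% of all genes) were lower on every IL1β array and 0 were higher on every one. CD55, the membrane protein that breaks up complement convertases, stood at 6.53, 6.76 and 5.93 with IL1β, against 6.84, 6.93 and 6.94 with vehicle (limma adjusted p = 0.544). The other members were C3, the central complement protein, and CFI, the protease that inactivates C3b, which differed by −0.77 ± 0.38 and −0.60 ± 0.38 on dim probes. Of 31 antioxidant and metal-binding genes SOD2 and GPX3 were higher on every IL1β array, and PRDX6, NQO1 and SRXN1 were lower on every one. Of those with all 6 values this was 6.9% higher and 10.3% lower, against 2.68% and 8.3% of all genes. PRDX6, a peroxidase of lipid and hydrogen peroxides, stood at 7.50, 7.62 and 7.29 with IL1β, against 8.15, 7.69 and 8.16 with vehicle, and at 7.15, 7.30 and 7.14 with both cytokines, against 7.49, 7.72 and 7.68 with TNFα alone. It was thus separated in both settings (limma adjusted p = 0.446 for IL1β against vehicle), while its other probes overlapped between IL1β and vehicle, at −0.24 ± 0.35 and −0.40 ± 0.47. Of 24 cholesterol and fatty acid synthesis genes 0 were separated either way, and 21 had a difference below 0 (87.5%, against 67.3% of all genes; median −0.25).

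ANGPT1 and RGS16 had differences of opposite sign without and with TNFα. ANGPT1 stood at 3.19, 3.03 and 2.95 with both cytokines, against 1.92, 1.99 and 2.27 with TNFα alone. It was higher on every array there, while each IL1β array lay below all vehicle arrays. The interaction was 2.31 ± 0.51 (SE; limma adjusted p = 0.966). RGS16 stood at 1.60, 0.85 and 3.78 with IL1β, against −0.87, −1.22 and −1.35 with vehicle, while both cytokines gave 0.36, 0.62 and 1.42, against 2.21, 0.69 and 2.39 with TNFα alone. The groups overlapped in the second setting, and the interaction was −4.18 ± 0.99 (adjusted p = 1.0). CCL2 stood at 4.13, 4.74 and 4.65 with both cytokines, against 4.87, 4.12 and 4.90 with TNFα alone, and its interaction of −2.80 ± 0.54 was not called (adjusted p = 0.843).

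IL1β replicate 2 was the lowest IL1β array in 11 of the 15 largest differences upward and the highest in 1. The summed intensity of 12 endothelial markers was 18.4 to 21.2 on IL1β arrays, against 21.1 to 26.5 on vehicle arrays. Their median difference was 0.0, with 6 above 0, 6 below and 0 separated, and 3 lay above the median signal. The summed intensity of 17 leukocyte markers was 17.6 to 22.8 on IL1β arrays, against 19 to 20.7 on vehicle arrays.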
